A study of Mus musculus with 6 samples.

Results

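The S100 genes encode small calcium-binding proteins. The set examined here was the 8 rows of the gene table named S100a1, S100a4, S100a6, S100a8, S100a9, S100a10, S100a11 and S100a13, out of 20 rows with an S100 name and 55487 genes in all. RNA sequencing was carried out on LSKs, the lineage-negative, Sca-1-positive and c-Kit-positive fraction of bone marrow that holds hematopoietic stem cells and multipotent progenitors, at day 13 after 5 Gy total body irradiation. All mice had been irradiated, so no unirradiated sample was compared. The 3 Tespa1+/+ libraries were from wild-type littermates and the 3 Tespa1-/- libraries were from mice without thymocyte-expressed, positive selection-associated 1, an adaptor protein of lymphocyte receptor signaling. Per the methods of the study, the null allele B6.129S-Tespa1tm1Smoc had been crossed to C57BL/6 for more than 6 generations, and mice were 8 to 10 weeks old. No tissue-specific driver was named, so the allele was taken as absent from the whole animal. The sources did not say whether a library was 1 mouse or a pool, so the p-values measure the spread between these libraries, which may be technical.

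S100 proteins are built around a pair of EF-hands, a helix-loop-helix motif that holds a calcium ion. Most form dimers, and calcium opens a surface through which a dimer grips a target such as an annexin or a myosin. S100a8 and S100a9 join as calprotectin, which fills the cytosol of neutrophils and their later bone marrow precursors, binds zinc and manganese away from microbes, and acts outside the cell as an alarm signal through Toll-like receptor 4 and RAGE. In the adult marrow both genes are best known as marks of the granulocyte and monocyte lines.

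Of the 8 genes, 5 were called higher in Tespa1-/- LSKs and 0 lower, where a call needed a fold beyond 1.5 and an adjusted p under 0.05 (edgeR quasi-likelihood F-test, Benjamini-Hochberg adjustment over the 15332 genes tested). The count of lower members was also 0 at an unadjusted p under 0.05 with that fold, with DESeq2 and with limma-trend. Over all genes tested, 14% were called higher and 19.2% lower by that rule. S100a8 and S100a9 rose by far more than the other members. S100a1, S100a11 and S100a13 rose by less than 2-fold each, and S100a4, S100a6 and S100a10 were not called. The median log2 fold change of the 8 genes was 0.84, beside -0.0003 over all genes tested. At an adjusted p under 0.05 with no demand on fold, 6 members were higher and 0 lower, where 31.5% and 31.8% of all genes were higher and lower. The groups did not overlap in 7 of the 8 genes, 6 of them higher and 1 lower, and they did not overlap in 69.1% of all genes tested either.

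**Figure D1:**
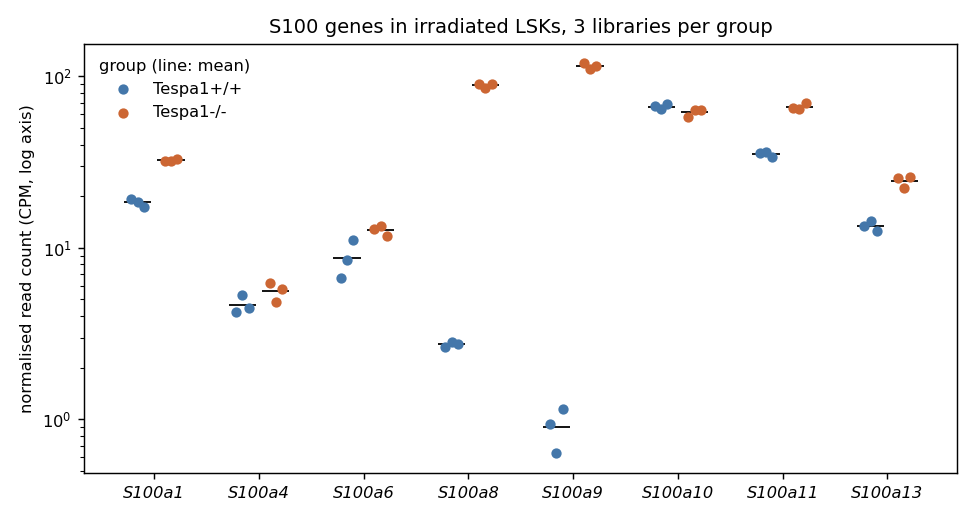
Normalised read counts (CPM, log axis) of the 8 S100 genes, with 1 point per library and a line at the mean of the 3 libraries of a group. S100a8 and S100a9 moved from the lowest levels of the set to the highest, and S100a4 overlapped between the groups.

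The genes of calprotectin lie in the main S100 cluster of mouse chromosome 3 and are transcribed from opposite strands. S100a8 (ENSMUSG00000056054, GRCm38 chromosome 3, 90668978 to 90670035, plus strand) ends 22.6 kb before S100a9 (ENSMUSG00000056071, 90692632 to 90695721, minus strand), and both are protein-coding genes. Their promoter windows, from 250 bases before to 50 bases after the RefSeq start, which for S100a8 lies inside the GENCODE gene model, are shown because these 2 genes carried the large change. Capitals mark matches to TATAAA, the TATA box, and to TTGCNNAA, a core of the sites bound by C/EBP factors, the family that drives granulocyte genes.

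The S100a8 window was chr3:90668821-90669120 on the plus strand and the S100a9 window was chr3:90695672-90695971 on the minus strand (RefSeq, GRCm38.p6), each written 5′ to 3′ on the strand of its gene.
S100a8: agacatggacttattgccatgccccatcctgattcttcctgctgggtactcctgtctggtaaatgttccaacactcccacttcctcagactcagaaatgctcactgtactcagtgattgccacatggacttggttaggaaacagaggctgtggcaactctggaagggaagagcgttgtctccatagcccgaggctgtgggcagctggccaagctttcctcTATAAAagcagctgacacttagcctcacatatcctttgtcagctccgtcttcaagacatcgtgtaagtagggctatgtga
S100a9: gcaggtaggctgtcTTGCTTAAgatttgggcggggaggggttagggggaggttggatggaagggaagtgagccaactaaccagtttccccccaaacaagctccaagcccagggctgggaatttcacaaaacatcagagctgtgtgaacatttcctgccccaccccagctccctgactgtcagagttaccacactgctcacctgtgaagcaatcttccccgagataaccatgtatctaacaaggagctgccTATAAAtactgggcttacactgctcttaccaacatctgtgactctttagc

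Both strands were searched, and the 2 motifs do not overlap each other in these windows. TATAAA began 30 bases before the start of S100a8 and at the annotated start of S100a9. TTGCNNAA was found once, in S100a9, as TTGCTTAA 236 bases before the start. Of 32851 promoter windows of the same length, 13.6% hold TATAAA and 10.8% hold TTGCNNAA, so a match is common and is given here as a description of the letters. Among the 7 members with a window in the RefSeq table, the only other match was TATAAA in S100a4, 31 bases before its start. S100a10 had no window there.

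In wild-type LSKs, 48, 89 and 41 counts fell on S100a8, against 1545, 1233 and 1111 in the 3 Tespa1-/- libraries. In normalised read counts, that is, counts scaled to a common library total (CPM) with TMM factors, these were 2.64, 2.82 and 2.77 CPM in Tespa1+/+ and 90.7, 84.9 and 89.6 CPM in Tespa1-/-. The 3 Tespa1+/+ libraries lay close together and every Tespa1-/- library was far above them. The means were 2.74 ± 0.0902 and 88.4 ± 3.06 CPM (SD, n = 3 each), and S100a8 rose 32.1-fold (95% interval 28.9 to 35.6; edgeR adjusted p = 8.1e-08).

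For S100a9, wild-type counts were 17, 20 and 17, against 2023, 1601 and 1424 without Tespa1. Its levels were 0.936, 0.633 and 1.15 CPM in Tespa1+/+ and 119, 110 and 115 CPM in Tespa1-/-. The gene was thus sparsely counted in wild-type LSKs and well counted in each Tespa1-/- library, with no overlap. The log2 fold change was 7.07 ± 0.14 (SE), a rise of 134-fold (95% interval 107 to 168; edgeR adjusted p = 2.6e-07). By log2 fold change, S100a9 stood at rank 50 and S100a8 at rank 71 from the highest of the 15332 genes tested.

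The proportion of the pair differed as well. S100a9 made up 26.2%, 18.3% and 29.3% of the summed S100a8 and S100a9 counts in the Tespa1+/+ libraries, with 95% Wilson intervals of 17.0 to 38.0%, 12.2 to 26.7% and 19.2 to 42.0%. It made up 56.7%, 56.5% and 56.2% in the Tespa1-/- libraries, with intervals of 55.1 to 58.3%, 54.7 to 58.3% and 54.2 to 58.1%. S100a9 was therefore the lesser transcript of the pair by count in every Tespa1+/+ library and the greater in every Tespa1-/- library. The intervals cover counting error within a library only. Since the reads carried no molecular identifiers, duplicate reads could make the intervals too narrow. The shares are given as a description, without a test, because an exact permutation test over 3 against 3 libraries cannot pass 0.05.

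The 3 members that rose by smaller folds were S100a1, S100a11 and S100a13. S100a1 and S100a13 stand back to back with 42 bases between them. S100a1 (ENSMUSG00000044080, chromosome 3, 90511034 to 90514392, minus strand), known for tuning calcium handling in muscle, runs one way and S100a13 (ENSMUSG00000042312, 90514435 to 90524581, plus strand), a copper-binding protein that takes part in the export of growth factors without a signal peptide, runs the other way. The window they share is shown because it lies between 2 members that both rose.

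It spans chr3:90514281-90514484 (RefSeq, GRCm38.p6, plus strand, 5′ to 3′), from the last base of the S100a1 promoter window to the last base of the S100a13 window, and capitals mark the 42 bases that belong to neither gene.
S100a1 and S100a13: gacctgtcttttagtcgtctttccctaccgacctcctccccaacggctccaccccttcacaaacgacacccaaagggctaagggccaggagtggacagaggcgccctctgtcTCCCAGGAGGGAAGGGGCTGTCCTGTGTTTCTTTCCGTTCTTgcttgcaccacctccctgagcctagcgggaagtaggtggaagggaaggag

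Neither TATAAA nor TTGCNNAA occurs in this window. Its GC content was 59.3%, beside 50% in the S100a8 and 51.3% in the S100a9 window.

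S100a1 was at 19.4, 18.5 and 17.4 CPM in the Tespa1+/+ libraries and at 32.2, 31.9 and 32.9 CPM in the Tespa1-/- libraries, from counts of 258 to 584. Spread within a group was small and the groups did not overlap. S100a1 rose 1.75-fold (95% interval 1.58 to 1.94; edgeR adjusted p = 3.3e-05).

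S100a13 was at 13.4, 14.3 and 12.6 CPM in Tespa1+/+ and at 25.7, 22.3 and 25.8 CPM in Tespa1-/-, from counts of 186 to 451. All 3 Tespa1-/- libraries were above all 3 Tespa1+/+ libraries. The rise was 1.83-fold (95% interval 1.58 to 2.11; edgeR adjusted p = 1.3e-04), and its interval overlapped that of S100a1; the difference between these 2 folds was not tested.

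S100a11 (ENSMUSG00000027907, chromosome 3, 93520488 to 93526287, plus strand), a partner of annexin A1 with roles in membrane repair and growth control, lies 2.83 Mb beyond the cluster, next to S100a10. Its levels were 35.9, 36.2 and 33.9 CPM in Tespa1+/+ and 65.1, 64.4 and 70.3 CPM in Tespa1-/-, from counts of 502 to 1144. S100a11 rose 1.88-fold (95% interval 1.72 to 2.06; edgeR adjusted p = 1.0e-05), the firmest of the 3 smaller rises by adjusted p, and the groups did not overlap.

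S100a10 (ENSMUSG00000041959, 93555080 to 93564643, plus strand), the p11 subunit that pairs with annexin A2 and needs no calcium to do so, starts 28.8 kb after the end of S100a11. It was at 66.9, 64.1 and 69.0 CPM in Tespa1+/+ and at 57.8, 63.3 and 63.9 CPM in Tespa1-/-. The Tespa1-/- libraries were all below the lowest Tespa1+/+ library, but by little. Its log2 fold change of -0.11 (95% interval -0.24 to 0.02; edgeR adjusted p = 0.113) did not pass. It was the only member with a fitted fold below 1. With total counts alone, without TMM factors, the log2 fold change was -0.21 at an adjusted p of 0.0123; that scaling moved the median of all genes tested by -0.101, so that relative to all genes the 2 values of S100a10 are alike.

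S100a6 (ENSMUSG00000001025, 90612882 to 90624181, plus strand), calcyclin, is a protein of dividing cells that binds the ubiquitin ligase adaptor CacyBP. It was at 6.66, 8.49 and 11.1 CPM in Tespa1+/+ and at 12.9, 13.4 and 11.7 CPM in Tespa1-/-. The wild-type libraries spread widely, and the highest of them lay just under the lowest Tespa1-/- library. The log2 fold change was 0.54 (95% interval 0.13 to 0.96; edgeR adjusted p = 0.0298), which fell short of the fold of 1.5. Without Tespa1+/+ replicate 3, the highest wild-type library, it was 0.73 and the gene was called, and without Tespa1+/+ replicate 1 it was 0.39 with an adjusted p of 0.0512.

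S100a4 (ENSMUSG00000001020, 90603771 to 90606045, plus strand), metastasin, a binder of non-muscle myosin IIA, was the least counted member in Tespa1-/- LSKs. Its levels were 4.24, 5.29 and 4.45 CPM in Tespa1+/+ and 6.22, 4.82 and 5.73 CPM in Tespa1-/-, and the groups overlapped. The log2 fold change was 0.25 (95% interval -0.09 to 0.59; edgeR adjusted p = 0.166), so a rise of up to 1.51-fold lies within its interval. Its exons share 302 bases with Gm42674 on the same strand; Gm42674 had a count of 0 in all 6 libraries, and reads of the shared stretch could have gone to either gene or to neither.

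**Figure D2:**
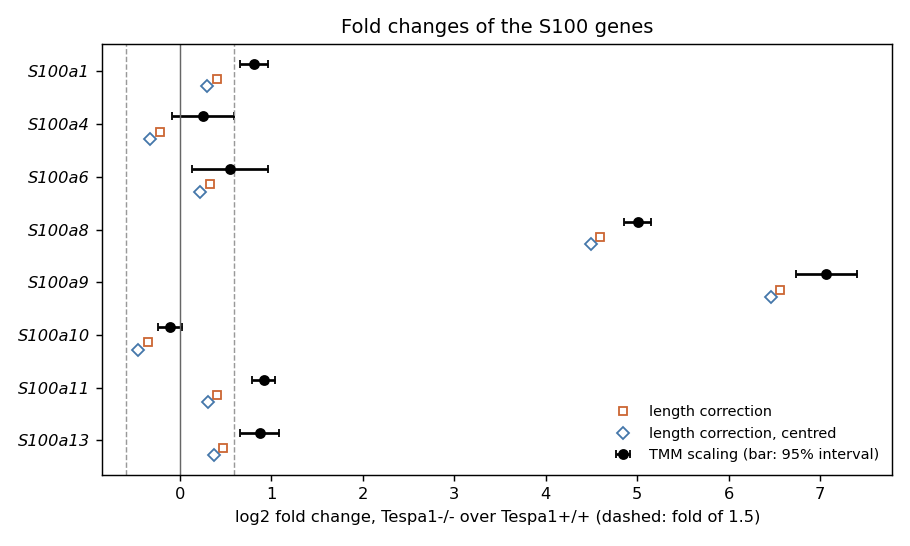
Log2 fold change (Tespa1-/- over Tespa1+/+) of each S100 gene, as filled points with 95% intervals for the TMM fit, open squares for the length correction and open diamonds for its centred form; dashed lines mark a fold of 1.5. S100a8 and S100a9 stay far above the line in each fit, while S100a1, S100a11 and S100a13 pass it in the TMM fit alone of the 3 fits drawn.

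S100 transcripts are short, and the size of the smaller folds depended on whether length was corrected for. The union of the exons of a member (GENCODE M21) was 511 to 1367 bases long. Across all genes tested the fold change ran with length. With genes sorted into 10 classes of equal size by length, the class of shortest genes (57 to 745 bases) had a median log2 fold change of 0.54, the next class (747 to 1510 bases) one of 0.41, and the class of longest genes one of -0.56. S100a1, S100a4, S100a8, S100a9, S100a11 and S100a13 lay in the shortest class, and S100a6 and S100a10 in the next.

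**Figure D3:**
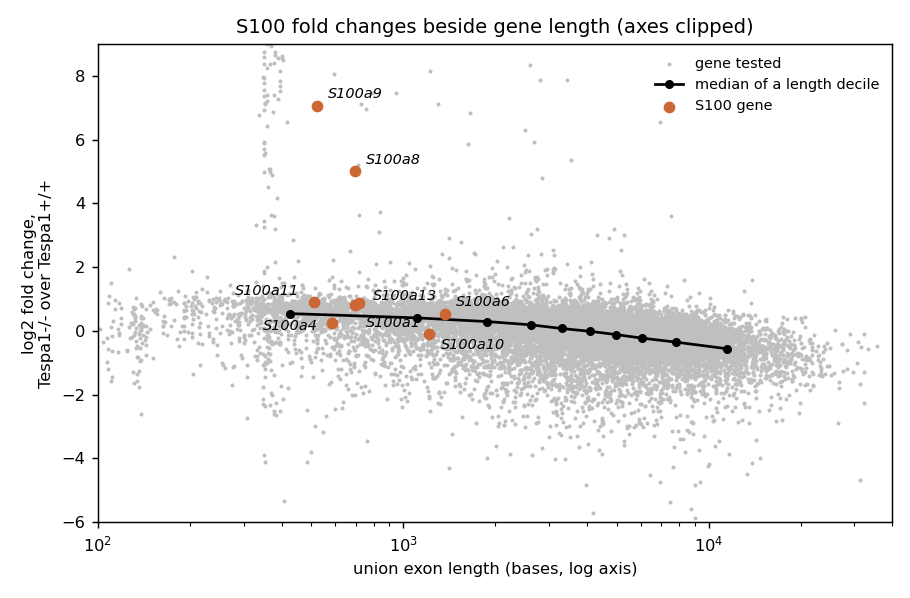
Log2 fold change (Tespa1-/- over Tespa1+/+) against union exon length in bases (log axis), with each gene tested in grey, the median of each of the 10 length classes in black and the 8 S100 genes labelled. S100a1, S100a11 and S100a13 lie a little above the line of medians, S100a4 and S100a10 below it, and S100a8 and S100a9 far above it; points beyond the axes are not drawn.

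With the trend taken out by a length offset per library, S100a8 was at a fold of 24.2 (edgeR adjusted p = 1.5e-07) and S100a9 at one of 94.6 (adjusted p = 5.3e-07). On the log2 scale S100a1 was at 0.40, S100a11 at 0.41 and S100a13 at 0.48, with edgeR adjusted p of 0.00114, 9.4e-04 and 0.00322. These 3 thus kept an adjusted p under 0.05 and lost the fold of 1.5, and 2 members rather than 5 were called. Of all 15332 genes tested, 1788 were called higher and 2054 lower with that offset, against 2148 and 2951 without it. S100a4 turned to -0.22 (adjusted p = 0.238), S100a6 was at 0.33 (adjusted p = 0.148), and S100a10 was at -0.35 (adjusted p = 0.00138).

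That offset left the median of all genes tested at 0.11, so the values are high by about this amount. Centred to remove it, a form chosen after the data were seen, S100a1, S100a11 and S100a13 were at 0.30, 0.30 and 0.37 (edgeR adjusted p of 0.00513, 0.00435 and 0.0108), S100a8 at 4.49, S100a9 at 6.46 and S100a10 at -0.46. Whether the trend came from the RNA, the libraries or the cells was not tested, and a change of short genes as a class cannot be told apart from it.

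Levels between members were compared in FPKM, which is scaled by gene length. The length that FPKM implies is 1254 bases for S100a1, 984 for S100a8, 728 for S100a9 and 715 for S100a13. Union exon lengths of these genes are 694, 694, 522 and 715 bases. For S100a11 both are 511 bases. The order and shares given here rest on the FPKM lengths and were not computed with union exon lengths. In Tespa1+/+ LSKs the order was S100a11 at 71.5 ± 2.60 FPKM, S100a10 at 42.5 ± 1.60, S100a13 at 19.4 ± 1.25, S100a1 at 15.2 ± 0.830, S100a4 at 5.78 ± 0.681, S100a6 at 4.68 ± 1.18, S100a8 at 2.88 ± 0.0910 and S100a9 at 1.29 ± 0.367 FPKM (SD, n = 3). The libraries of neighbours in that order did not overlap, except those of S100a4 and S100a6. In Tespa1-/- LSKs it was S100a9 at 152 ± 5.42 FPKM, S100a11 at 126 ± 6.09, S100a8 at 86.7 ± 2.89, S100a10 at 36.7 ± 2.03, S100a13 at 33.1 ± 2.68, S100a1 at 24.9 ± 0.394, S100a4 at 6.46 ± 0.813 and S100a6 at 6.33 ± 0.434 FPKM. Here S100a10 overlapped S100a13, and S100a4 overlapped S100a6. The calprotectin genes thus moved from the last 2 places to places 1 and 3, and the other 6 kept their order among themselves.

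The summed FPKM of the 8 genes was 163 ± 2.02 in Tespa1+/+ and 472 ± 14.1 in Tespa1-/- libraries (SD, n = 3). The FPKM total of all genes also differed, and scaled to a common total of all genes (as in TPM) the 8 genes held 458 to 470 in Tespa1+/+ and 1055 to 1118 in Tespa1-/- libraries. S100a11 and S100a10 together made up most of the S100 FPKM in wild-type LSKs, at 43.8% and 26.1%, with S100a8 at 1.77% and S100a9 at 0.790%. In Tespa1-/- LSKs, S100a9 held 32.2% and S100a8 18.4%, while S100a11 was at 26.6% and S100a10 at 7.79%. A lower share of S100a11 in this make-up went with a higher level of S100a11 itself.

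**Figure D4:**
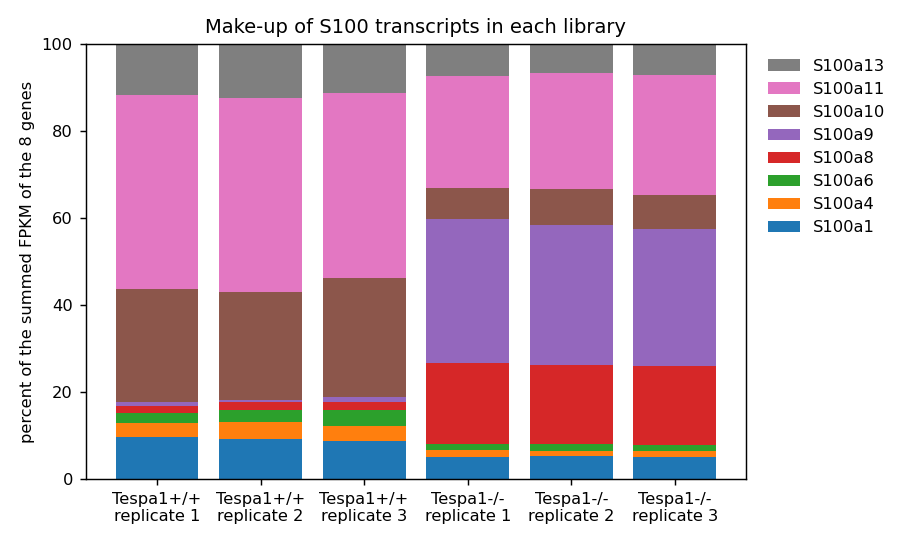
Percent of the summed FPKM of the 8 S100 genes held by each gene, with 1 stacked bar per library. The 3 bars of a group are alike; S100a8 and S100a9 take up a thin band in Tespa1+/+ and, in Tespa1-/-, 18.2 to 18.7% and 31.5 to 33.0%.

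The other S100 genes gave almost no counts. Of 8 further family members listed (S100a3, S100a5, S100a7a, S100a14, S100a16, S100b, S100g and S100z), 0 had enough counts to be tested. S100a7a, S100b, S100g and S100z had a count of 0 in every library, where a count of 0 allows up to 3 counts per library. S100a16 had counts of 4, 9 and 0 in wild-type LSKs and 0, 0 and 0 without Tespa1. No change could be detected in these genes at this depth.

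Of the 8 members, 6 share a stretch of 185 kb from 90511034 to 90695721 of chromosome 3. The 4 genes without an S100 name inside it had at most 1 count over all 6 libraries, so no expressed gene other than an S100 gene could be compared there. Just outside the cluster, Chtop, an RNA export factor, had a log2 fold change of 0.32 (edgeR adjusted p = 2.0e-04, not called by fold) and the predicted gene Gm35013 fell by 0.67 on the log2 scale (adjusted p = 0.00257). These flanking genes were chosen after their values were seen. Within the cluster, S100a8 and S100a9 rose 32.1-fold and 134-fold while S100a4 and S100a6 were not called. S100a1 and S100a13, also in the cluster, rose 1.75-fold and 1.83-fold with TMM and were not called with the length correction.

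Annexins bind membranes in a calcium-dependent way and are classical partners of S100a10, S100a11 and S100a6. Of 9 annexins tested, 3 were called higher and 0 lower, beside 14% and 19.2% of all genes. Anxa1, the partner of S100a11, was at 99.2, 98.4 and 95.6 CPM in Tespa1+/+ and 204, 196 and 201 CPM in Tespa1-/-, and it rose by 1.03 ± 0.03 (SE) on the log2 scale (edgeR adjusted p = 1.3e-06). Anxa2, with which S100a10 forms a heterotetramer, was at 111, 110 and 107 CPM and at 210, 185 and 192 CPM, and it rose by 0.84 ± 0.05 on the log2 scale (edgeR adjusted p = 1.1e-05). Anxa3, an annexin of neutrophil granules, rose by 0.63 ± 0.04. These 3 annexins stayed above the fold of 1.5 with the length correction, at 1.02, 0.93 and 0.71, and in its centred form, at 0.91, 0.82 and 0.60. Anxa2 thus rose while S100a10 was not called, and the difference between their folds was not tested. With total counts alone Anxa3 was at 0.53 and not called, and with the length correction Anxa7 was called too, at 0.79. By adjusted p alone 5 annexins were higher and 3 lower, beside 31.5% and 31.8% of all genes, the lower being Anxa4, Anxa6 and Anxa11, with log2 fold changes from -0.42 to -0.15.

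Of 9 receptors of extracellular S100 proteins tested, 1 was called higher and 2 lower, which is near the 14% and 19.2% of all genes. Cd14, the co-receptor that hands ligands to Toll-like receptor 4, rose by 0.68 on the log2 scale (edgeR adjusted p = 6.6e-05), but it passed the fold of 1.5 neither with total counts alone nor with the length correction, where it was at 0.51. With the length correction Nptn was called higher instead, at 0.76 (edgeR adjusted p = 0.0457). Nptn was not called with TMM (0.44, adjusted p = 0.191) or in the centred form (0.65, adjusted p = 0.0769). Alcam and Cd36, adhesion and scavenger receptors, fell by 0.71 and 0.89 on the log2 scale. With the length correction Alcam was at -0.32 and no longer called, and Cd36 was at -0.82. Tlr4 itself was counted 186, 121 and 127 times in wild-type and 169, 11 and 121 times in Tespa1-/- libraries. One Tespa1-/- library, replicate 2, was far below the other 5, and the log2 fold change of -0.11 came with an SE of 0.72 (adjusted p = 0.902). Ager, which encodes RAGE, overlapped between the groups at 2.81 to 4.08 CPM and 3.99 to 5.92 CPM (log2 fold change 0.42, edgeR adjusted p = 0.116).

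Among intracellular partners, 6 of 9 listed genes had enough counts, of which 1 was called higher and 4 lower, beside 14% and 19.2% of all genes. With the length correction 2 were called higher and 1 lower, beside 1788 and 2054 of all 15332 genes tested. Ahnak, a giant scaffold bound by the S100a10 and annexin A2 complex, was at 122, 122 and 119 CPM in Tespa1+/+ and 25.1, 25.9 and 24.1 CPM in Tespa1-/- and fell by 2.27 on the log2 scale (edgeR adjusted p = 2.5e-07). It is a long gene, and with the length correction the log2 fold change was -1.46, still past both thresholds. Myh9, the myosin IIA heavy chain bound by S100a4, and Iqgap1, a scaffold bound by several S100 proteins, fell by 0.60 and 0.66, but with the length correction these were 0.06 and 0.09. S100pbp fell by 0.80 and was at -0.28 with the correction (adjusted p = 0.156). Cacybp, the partner of S100a6, rose by 0.71 (edgeR adjusted p = 8.0e-05) and was at 0.64 with the correction and 0.53 in its centred form.

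**Figure D5:**
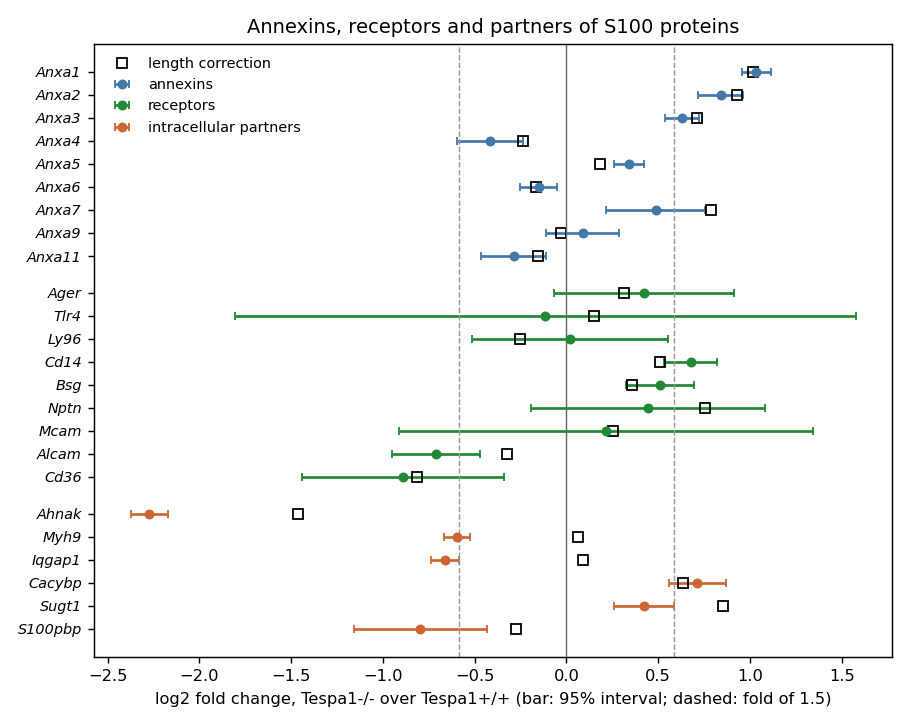
Log2 fold change (Tespa1-/- over Tespa1+/+) of annexins (blue), receptors (green) and intracellular partners (orange) of S100 proteins, with 95% intervals; open squares give the length correction and dashed lines a fold of 1.5. Anxa1, Anxa2 and Ahnak stay beyond the lines with the correction, and Myh9 and Iqgap1 move to about 0.

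Other EF-hand proteins were listed as a comparison from outside the family. Of 14 tested, 1 was called higher, Calml4 (log2 fold change 0.70, adjusted p = 0.0104), and 0 lower, beside 14% and 19.2% of all genes. By adjusted p alone 12 were higher and 1, Chp1, was lower (log2 fold change -0.33), beside 31.5% and 31.8% of all genes. The median of the 14 was 0.47, beside 0.84 for the 8 S100 genes, and a difference between the lists was not tested.

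Most genes of a neutrophil marker list rose along with S100a8 and S100a9. Of 14 genes listed as neutrophil granule markers, which include the receptor gene Cxcr2, 12 were called higher, beside 14% of all genes. The log2 fold changes of the 14 had a median of 3.91. Mpo, Elane, Prtn3 and Ctsg were already abundant in Tespa1+/+ LSKs, at means of 7524, 1290, 1026 and 1150 CPM, beside 333 CPM for Kit. The length correction left 12 called, at a median of 3.88, beside 1788 of all 15332 genes tested called higher. The summed level of the 14 was 10600 to 11350 CPM in Tespa1+/+ and 17430 to 18290 CPM in Tespa1-/- libraries. Most of it came from Mpo, the myeloperoxidase of primary granules. Mpo had a log2 fold change of 0.48, under the fold of 1.5, as had Cxcr2 at 0.23, which was past neither threshold. Several genes of later granules had few counts in wild-type LSKs, as S100a9 had. Wild-type counts of Ngp were 3, 8 and 5, against 1226, 1054 and 885 in Tespa1-/-, and those of Ltf, lactoferrin, were 0, 10 and 3, against 823, 689 and 625. Camp, Chil3, Mmp9, Cd177 and Lcn2 rose by 6.97, 5.86, 5.35, 4.80 and 3.03 on the log2 scale. The part of cells of the neutrophil line, or of their transcripts within LSKs, in the rise of S100a8 and S100a9 was not tested. In bulk samples more cells of a type cannot be told apart from more RNA per cell.

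Kit and Ly6a, the genes of the sort, were present in all libraries. The list of 8 LSK markers also held Cd34, Flt3, Mecom, Hlf, Procr and Slamf1, which do not encode markers of the sort. Of these 8 LSK markers, 7 were called lower, beside 19.2% of all genes. Their summed level was 1168 to 1194 CPM in Tespa1+/+ and 637 to 655 CPM in Tespa1-/- libraries. Several of these genes are long, and with the length correction 5 of the 8 were called lower, or 6 in its centred form. Of all 15332 genes tested, 2054 were called lower with the correction and 2431 in the centred form. Kit, which encodes the c-Kit of the gate, was at 322 to 341 CPM and at 165 to 177 CPM, a log2 fold change of -0.97, or of -0.48 with the correction, under the fold of 1.5. Ly6a, which encodes Sca-1, overlapped between the groups at 43.4 to 63.8 CPM and 38.1 to 44.2 CPM and was not called with TMM (log2 fold change -0.32) or with the length correction (-0.56), but was in the centred form (-0.67). Of 9 monocyte and macrophage markers tested, 1 was called higher (Ly6c2) and 2 lower (Csf1r and Cx3cr1), near the 14% and 19.2% of all genes. The median log2 fold change of the 9 was 0.01. With the length correction 1 of them was called higher and 1 lower.

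The part of the remaining marker lists in the S100 changes was not tested, and their counts stand beside 14% of all genes called higher and 19.2% called lower. Called higher and lower were 1 and 5 of 7 B and plasma cell markers, 1 and 2 of 4 T and NK cell markers, 2 and 3 of 5 erythroid markers, 0 and 2 of 5 megakaryocyte markers, 2 and 2 of 6 eosinophil, basophil and mast cell markers, and 0 and 2 of 3 vessel and stroma markers. Of the eosinophil, basophil and mast cell markers, Prg2 and Epx had log2 fold changes of 3.73 and 3.19. Ms4a2 and Gata2 were at -1.33 and -0.91, and Mcpt8 and Cpa3 were not called. The log2 fold changes of the megakaryocyte markers ran from -2.32 to -0.04 and those of the vessel and stroma markers from -4.83 to -0.57. The summed CPM of these lists ranged over 75.0 to 101 and 106 to 114, 194 to 205 and 312 to 328, 32.7 to 35.2 and 37.8 to 40.8, 106 to 113 and 66.6 to 71.2, 111 to 146 and 102 to 122, and 109 to 116 and 71.5 to 77.2, in Tespa1+/+ and Tespa1-/- libraries in turn. Cd3e, Ms4a1 and Lepr had a count of 0 in each Tespa1-/- library. Their Tespa1+/+ counts were also near the floor, at 8, 7 and 4 for Cd3e and 2, 0 and 3 for each of Ms4a1 and Lepr. None of these genes had enough counts to be tested.

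The genes whose centred log2 CPM over the 6 libraries lay nearest to S100a8 and to S100a9 were 10 in number by the rule, 5 for each. Of these, 9 were immunoglobulin V genes, with at most 1 count in a Tespa1+/+ library and 32 to 210 counts in a Tespa1-/- library, and the other was Ngp, the fifth for S100a9 at a Euclidean distance of 1.18. The nearest to S100a8 was Ighv8-8, at a distance of 0.192. The distance was taken after a prior count of 2, which shrinks the difference of a gene with almost no wild-type counts. The fitted log2 fold changes of these genes were larger than those of S100a8 and S100a9, at 9.01 for Ighv8-8, so the likeness depends on that prior count and on libraries falling into 2 groups.

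The libraries held 12856630 to 30576981 counts. Libraries of a group differed by more than counting noise, which cannot tell separate mice from separate preparations of 1 pool. Each library was treated as a sample of its own, as labelled. The targeted gene, Tespa1 (chromosome 10), was at 34.5, 32.7 and 35.9 CPM in the Tespa1+/+ and at 15.3, 14.3 and 14.2 CPM in the Tespa1-/- libraries. It fell by 1.23 on the log2 scale (edgeR adjusted p = 7.0e-06) and matched the labels in direction, with counts of 176 to 261 remaining in Tespa1-/- libraries.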

How the data were processed

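Poly-A RNA of sorted LSKs was made into stranded paired-end libraries. The authors deposited 1 table with a raw count and an FPKM value for each gene and library; counts were not normalised, and FPKM is the count divided by a fixed length per gene and by the count total of the library. Submitters' processing notes name CASAVA 1.8, HISAT2, StringTie, edgeR and GRCm38, without settings; whether counting used the strand is not given in the sources used here. FPKM was used for levels between genes and in alternatives.

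Counts were filtered with filterByExpr, scaled by TMM and tested with edgeR 4.0.16 in R 4.3.3 (quasi-likelihood F-test, 3 against 3 libraries, no covariates, Benjamini-Hochberg adjustment over 15332 genes). Fold changes are Tespa1-/- over Tespa1+/+, and the fold of 1.5 is the cutoff of the study. Depth was 12856630 to 30576981 counts per library, and the common biological coefficient of variation was 0.11. Gene positions and union exon lengths are from GENCODE M21. The length correction used, as an offset, a loess fit (span 0.5) of the log2 CPM deviation of each library on log2 length.

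Members and gene lists were chosen with earlier results of these data known. Genes named were the 8 members, list members called (largest changes first), the 5 genes nearest to S100a8 and the 5 nearest to S100a9, genes inside the cluster and Tespa1; others carry a remark or were given to complete a group. Lists were related S100 genes, annexins, receptors, intracellular partners, other EF-hand proteins and 9 marker lists. Alternatives were RLE factors, total counts alone, 2 other filters, DESeq2 1.42.0, limma-trend (limma 3.58.1) on log2(FPKM + 1) and log2(FPKM + 0.1), the p cutoff of the study, a replicate block, leaving out each library and the length correction, with 2 further forms of it chosen after the data were seen. The scripts were tested on simulated data. Proteins of the members were not used here.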

Additional observations from a re-analysis of the deposited data

How the results depend on the processing

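S100a1, S100a8, S100a9, S100a11 and S100a13 kept their direction and an adjusted p under 0.05 in all 17 alternatives that give a fold, with log2 fold changes of 0.30 to 0.85, 4.49 to 5.04, 6.08 to 7.25, 0.30 to 0.94 and 0.37 to 0.94. The count of S100 genes called higher was 2 with the length correction, 2 in its centred form and 3 with the length implied by FPKM, and 5 or 6 elsewhere; 0 were lower in any. The smaller folds under the correction follow from taking out a trend in which short genes were higher; for the rest the cause was not tested.

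The median log2 fold change of the 8 genes was 0.74 with total counts alone, 0.71 and 0.74 with limma-trend at pseudocounts of 1 and 0.1, 0.41 with the length correction, 0.30 centred and 0.47 with the implied length. S100a4 reversed under these 3 corrections, to -0.22, -0.33 and -0.072. S100a6 lost an adjusted p under 0.05 with total counts alone (0.44), limma-trend (0.39 and 0.45), the 3 corrections (0.33, 0.22 and 0.45) and without Tespa1+/+ replicate 1 or 2 or Tespa1-/- replicate 1 or 2 (0.39 to 0.73 over the 6 libraries left out in turn). S100a10 gained it with total counts alone (-0.21), limma-trend (-0.21 and -0.21) and the 3 corrections (-0.35, -0.46 and -0.23).

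Genes called higher numbered 1070 and 1365 with limma-trend and 1159 with the centred correction, against 2148, and genes called lower 1626 with limma-trend at a pseudocount of 1, against 2951. The length correction gave 1788 higher and 2054 lower. Of the calls, 42.1% were higher with TMM, 29.8% with total counts alone and 46.5% with the length correction, or 32.3% centred. Annexins called higher were 2 with total counts alone and with either limma-trend and 4 with each length correction, against 3. Receptors called higher were 0 with total counts alone, with either limma-trend and with the centred correction, 2 with the implied length, and 1 to 2 without 1 library (2 without Tespa1+/+ replicate 1 or 3, 1 otherwise). Receptors called lower were 1 with DESeq2, 0 and 1 with limma-trend, and 1 with each correction. Partners called higher were 2 with the length correction and with the implied length, and called lower 1 with each correction. EF-hand proteins called higher were 0 with either limma-trend, 3 with the length correction, 2 with the implied length, and 0 to 2 without 1 library (2 without Tespa1+/+ replicate 3, 0 without Tespa1-/- replicate 2).

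Samples with the same replicate number showed little likeness beyond their groups: their deviations from the group means correlated at 0.046, 0.011 and 0.060. Even so, each Tespa1+/+ library correlated best with the Tespa1-/- library of its own number, so a weak pairing is not excluded. A block on that number gave 2101 genes higher, 2871 lower and 5 S100 genes called higher. At 17 to 20 counts, S100a9 in Tespa1+/+ libraries limits the precision of its fold.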
